A study of Rattus norvegicus with 30 samples.

Results

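The cytosolic ribosomal proteins are the proteins that, with ribosomal RNA, form the large and the small subunit of the ribosome outside the mitochondria. The members were chosen by gene symbol alone: every gene whose only symbol in the platform's probe table is Rpl or Rps with a number (or Rplp0 to Rplp2, or Rpsa), leaving out the S6 kinases, with the brightest probe set standing for each gene. The rule found 47 of the 14217 genes that the array names, 33 of the large and 14 of the small subunit, in 54 probe sets. Of these, 44 lay above the filter on low signals and were tested, and 3 (Rpl28, Rpl39l1 and Rpl3l) did not. The choice of genes reads symbols and no measured values. The brightest probe set of each gene was found from its mean log2 signal over the 30 arrays. Rplp1, Rplp2 and Rps27a have no probe set with a single symbol, and another 36 probe sets carry a ribosomal protein symbol together with other symbols, so no gene is named from them.

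The cells were primary hepatocytes of male Sprague Dawley rats, bought frozen, plated on collagen under a Matrigel overlay and dosed on day 3 of culture. Clofibrate, a fibrate that activates the nuclear receptor PPAR-alpha, was given at 60 uM or 1000 uM, and the controls, like all dosed wells, received the vehicle DMSO (1% in the labels of the controls). RNA was taken after 24 or 48 h, which gives 6 groups of 5 wells and 30 Affymetrix arrays. No genetic change was made, and the labels name separate wells without naming animals or cell lots, so the p-values reflect only the variation from well to well. Values are the MAS5 signals deposited by the authors, where each array had been scaled to nearly the same trimmed mean (1501), so an equal change in all messenger RNA would not be seen. In bulk RNA, fewer cells of a type and less RNA per cell cannot be told apart.

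Ribosomal protein messengers are among the most abundant in a mammalian cell and are made in matched amounts, because each ribosome takes about 1 copy of nearly every protein. Many of them open with a 5′ terminal oligopyrimidine (TOP) motif, a C followed by a run of pyrimidines, through which mTOR and the RNA-binding protein LARP1 control their translation. That control acts on translation more than on messenger level, and the arrays measure messenger level only. Hepatocytes, which secrete most plasma proteins, are rich in ribosomes.

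The sequences around the annotated transcription start show the first bases of the messengers, where a TOP motif would lie. RefSeq windows of the GRCr8 assembly were found for 42 of the 47 members. Each line gives the 15 bases before the annotated start and the 15 bases from it, 5′ to 3′ on the gene's strand, and capitals mark the pyrimidine run that holds the first base. Rplp0, Rpl35a and Rps15 are shown as members whose annotated first base is a C with at least 4 pyrimidines after it, inside a run that begins upstream, Rpl12, Rpl3 and Rpl39 as members that fell at 1000 uM, Rps27l and Rpl7l1 as the paralogs described later, and Rps24 as the gene whose probe sets disagreed.
Rplp0 (chr12:46718376-46718405, minus strand): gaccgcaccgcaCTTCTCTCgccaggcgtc
Rpl35a (chr11:81235007-81235036, minus strand): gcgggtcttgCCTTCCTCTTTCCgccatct
Rps15 (chr7:10068101-10068130, minus strand): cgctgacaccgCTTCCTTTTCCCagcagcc
Rpl12 (chr3:36661925-36661954, plus strand): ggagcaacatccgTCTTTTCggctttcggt
Rpl3 (chr7:113507976-113508005, minus strand): ccagcgcctgctcgaTCTCTatcggcggcg
Rpl39 (chrX:121195882-121195911, minus strand): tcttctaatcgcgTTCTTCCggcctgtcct
Rps27l (chr8:76443643-76443672, plus strand): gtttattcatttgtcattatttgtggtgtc
Rpl7l1 (chr9:21695703-21695732, plus strand): agctgcagatgcattgtgggaagcctttaa
Rps24 (chr16:96502-96531, plus strand): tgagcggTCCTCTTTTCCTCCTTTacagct
A C with at least 4 further pyrimidines exactly at the annotated start was found in 12 of the 42 members (28.6%) and in 881 of all 33469 promoter windows (2.63%). Rpl39 and Rpl22, both lower at 1000 uM after 48 h, are among the 12. So are Rps3a, Rplp0, Rpl19, Rpl34, Rpl35, Rpl35a, Rpl37a, Rps15 and Rpl14, which did not pass there as deposited, and the untested Rpl28. A link between the start and the change was not tested. In Rpl12 the annotated first base is a T inside a run that begins upstream, and in Rpl3 a T that opens a run. Rps27l and Rpl7l1 have no run at the annotated start. Over the windows of 250 bases before to 50 after the start, on both strands, CCGGAAG (a core of ETS-family sites, the group that holds GABP) stood in 10 members (23.8%) against 8.75% of all windows. GGGCGG, the GC box, stood in 25 members (59.5%) against 33.1%, AAGATGGC, a core of YY1 sites, in 4 (9.52%) against 3.17%, and TATAAA in 5 (11.9%) against 14.2%. The searched motifs were counted on their own, CCGGAAG and AAGATGGC can share bases, and a match is a description of letters only.

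Most members sat at the top of the array's range. The 38 brightest had mean log2 signals between 15.18 and 16.31 (signals of 37188 to 80982) and lay at or above percentile 99.0 of all probe sets. The brightest were Rps29, a zinc-binding small subunit protein, with 84456 ± 3898 (SD, n = 5) in DMSO at 24 h, and Rps23, which sits at the decoding centre, with 84561 ± 4461. Rpl26 and Rpl3 followed at mean log2 16.22 and 16.12. Signals of different probe sets are not amounts of RNA on 1 scale, so this order describes the probe sets. Whether signals this near the top of the range still follow the amount of RNA in proportion was not tested. The changes and intervals given below for bright members make no allowance for this. The other 9 members were dimmer: Rps27l at mean log2 13.43, Rpl7l1 at 12.75, Rpl39 at 10.10, Rpl26l1 at 9.04, Rpl30 at 8.78, Rps13 at 8.24 and the 3 untested genes. Rps13, Rpl30 and Rpl39 encode standard ribosome components, and their low signals are those of single probe sets. Rpl28, Rpl39l1 and Rpl3l each lay, in at least 1 group, under the floor set by the bacterial TrpnX controls.

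**Figure D1:**
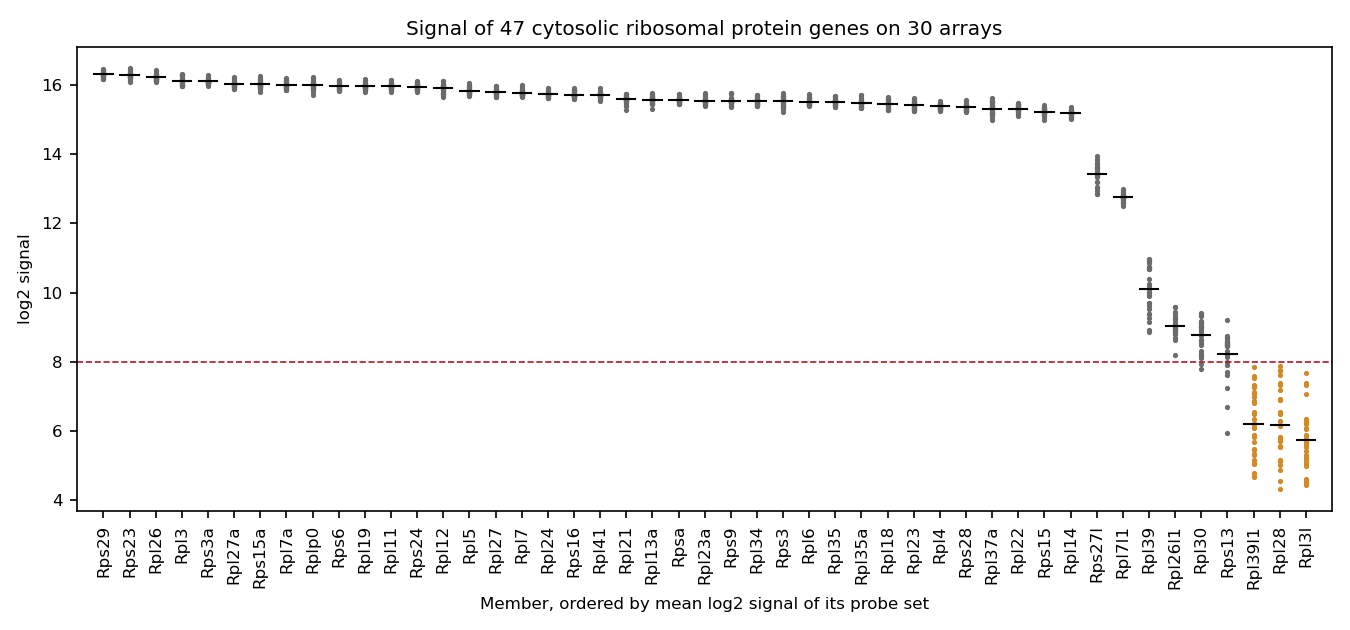
The log2 signal of each of the 47 members on each of the 30 arrays (points), with the mean over arrays (black bars), ordered by mean. The dashed line marks the filter, a signal of 255, and the 3 untested genes are orange. The 38 brightest members form a plateau above log2 15, and 9 members lie below it.

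The bright members moved together from well to well. After the group means were removed, the median correlation over the 703 pairs of the 38 bright members was 0.78, and 692 pairs lay above 0, against a median of 0.57 over pairs of all 263 genes brighter than log2 15. These correlations run over 30 arrays with 24 residual degrees of freedom and share the array's scaling and hybridisation, so they are a description. The median SD of a bright member within a group was 0.081 in log2, and 0.037 once the array's own mean over the members was taken out. A difference of 0.14 in log2 is 10%.

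At 60 uM, with the signals as deposited, no member passed the test (adjusted p under 0.05) at either time. With quantile normalisation 3 were lower at 48 h (6.22% of all genes). With the mean of a member's probe sets 1 was lower at 24 h, and without 60 uM replicate 1 there was 1 lower at 48 h. As deposited at 24 h, 0 of 44 members were higher and 0 lower, where 4.55% of all 10627 genes tested were higher and 3.76% lower. At an unadjusted p under 0.05 the counts were also 0 and 0. The share of all genes at that unadjusted threshold was not counted in any comparison. At 48 h, 0 were higher and 0 lower against 5.7% and 5.79% of all genes, and at an unadjusted p under 0.05 there were 0 higher and 2 lower. The members' median change was -0.02 at 24 h and -0.03 at 48 h, and that of all genes -0.02 and -0.01. The 95% intervals of the 38 bright members lay within -0.22 to 0.20 at 24 h and within -0.32 to 0.12 at 48 h. Of the members with an unadjusted p under 0.05 at 48 h, Rps13 had the larger difference, -0.83 ± 0.38 (SE; adjusted p = 0.205), with DMSO signals of 353, 411, 589, 421 and 317 and 60 uM signals of 359, 257, 387, 294 and 61. One array of 61 lay far below the others, and the groups overlapped. The other was Rpl12, which helps form the base of the ribosomal stalk, at -0.10 ± 0.05 (adjusted p = 0.210).

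At 1000 uM for 24 h, 2 members were lower and 0 higher, where 20.5% of all genes were lower and 13.4% higher. The members' median change was -0.07 and that of all genes -0.06. Below 0 lay 40 of the 44 values, against 59.0% of all genes, and the bright members moved together from well to well. Rps27l had signals of 11164, 14844, 13495, 12120 and 10523 in DMSO and 10583, 10334, 10744, 9351 and 8299 at 1000 uM. Of the dosed arrays 3 lay below all controls and the groups overlapped; the change was -0.33 ± 0.10 (adjusted p = 0.00937). With the arrays centred on their median it did not pass (adjusted p = 0.0564), nor with spike-in scaling (adjusted p = 0.572). Rpl3, a large subunit protein close to the peptidyl transferase centre, fell from 76467 ± 4153 to 69748 ± 3384, a change of -0.13 ± 0.05 (adjusted p = 0.0429), with 4 dosed arrays below all controls. With spike-in scaling its change was 0.10. A second, dimmer probe set of Rpl3 had 0.17 ± 0.10 (adjusted p = 0.221) here and -0.18 ± 0.10 (adjusted p = 0.152) at 1000 uM after 48 h. The Rpl3 call was lost without any 1 of DMSO replicates 2, 3 or 5 or 1000 uM replicates 2, 4 or 5, with an adjusted p of up to 0.127. The number of members lower ranged from 1 to 5 as single arrays were left out; it was 1 without any of those 6 arrays, 4 without 1000 uM replicate 3 and 5 without DMSO replicate 4. A further 4 members had an unadjusted p under 0.05, a threshold at which the share of all genes was not counted. They were Rplp0, which anchors the stalk, at -0.15 ± 0.07 (adjusted p = 0.0936), Rps23 at -0.13 ± 0.05 (adjusted p = 0.0613), Rps15a at -0.13 ± 0.06 (adjusted p = 0.0906) and Rps16 at -0.11 ± 0.05 (adjusted p = 0.111).

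At 1000 uM for 48 h, 11 members were lower and 0 higher as deposited, where 26.8% of all genes were lower and 17.1% higher. The lower share of the members, 25%, is close to that of all genes as deposited, but the count moved with the scaling: 32 of the 44 were lower with quantile normalisation (24.4% of all genes) and 6 with median centring (24.5%). The members' median change was -0.06, as was that of all genes. Among the 38 bright members 8 were lower, every bright member's change lay between -0.18 and 0.04, and their 95% intervals lay within -0.34 to 0.15. Of all 263 genes above log2 15, the 38 members included, 31.9% were higher and 25.1% lower in the same comparison. In 6 members all 5 dosed arrays lay below all 5 controls, where 19% of all genes had this separation. Without DMSO replicate 1 the number of members lower was 7, and over the arrays left out 1 at a time it ranged from 7 to 13. With the arrays scaled to the spike-in controls, Rps27l was the 1 member still lower, where 11.9% of all genes were lower and 22% higher.

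**Figure D2:**
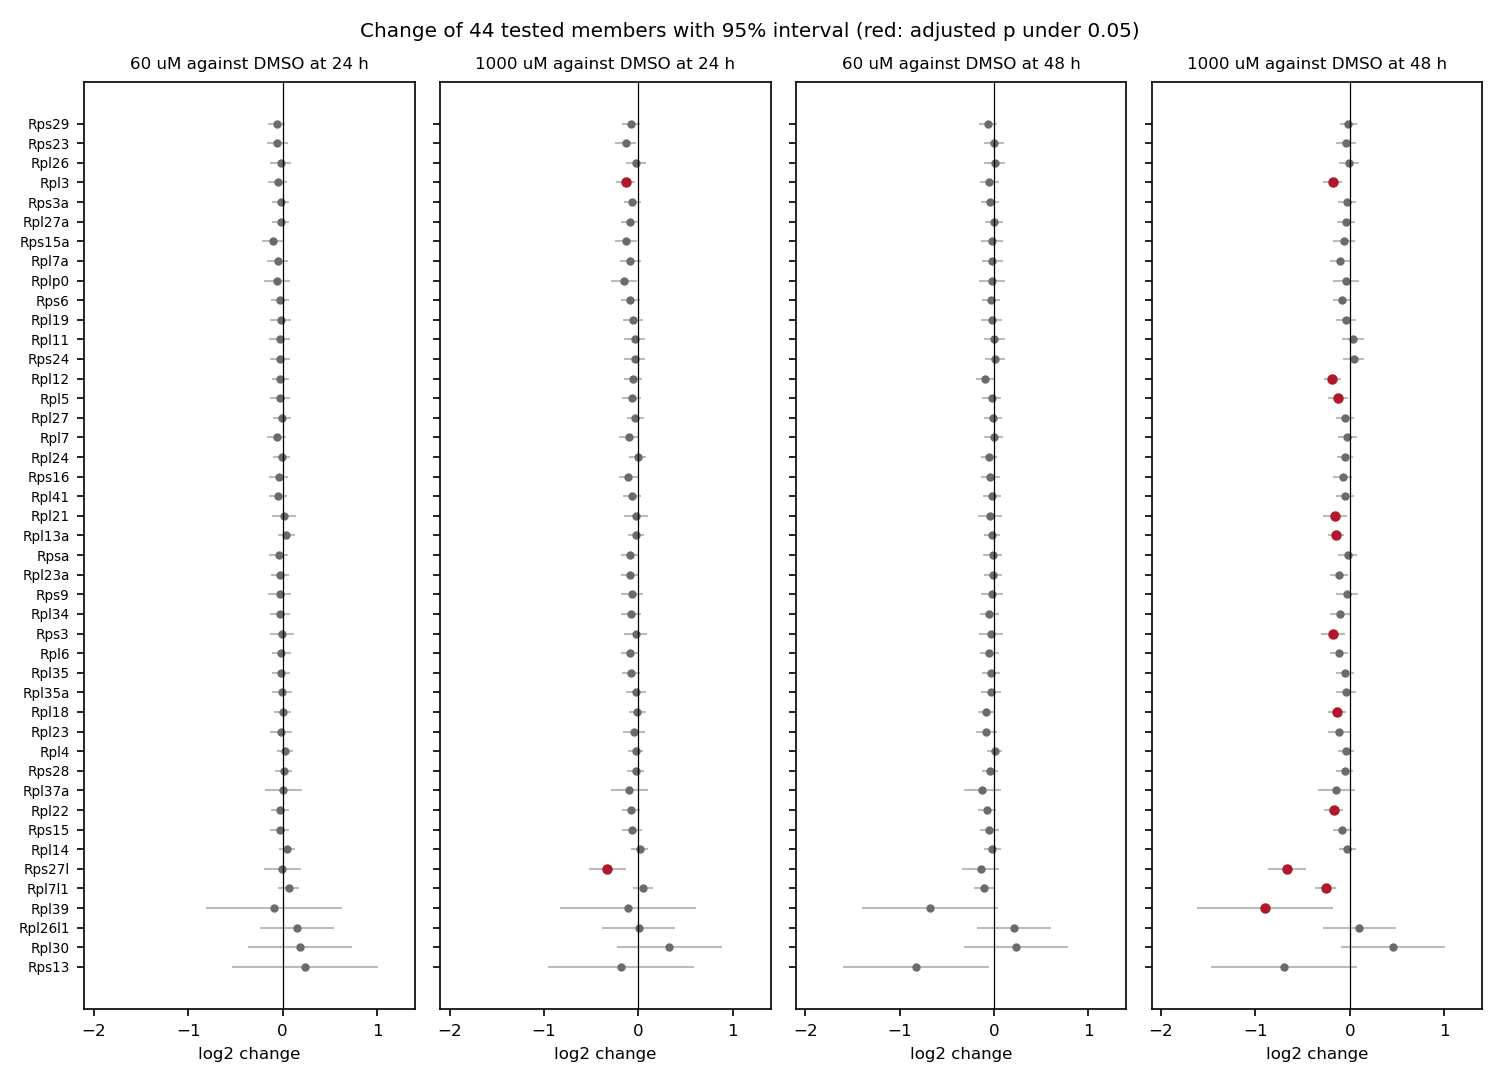
The log2 change of each of the 44 tested members (points) with its 95% interval (lines) in the 4 comparisons with DMSO, ordered by brightness from the top. Red points passed at an adjusted p under 0.05: 2 members at 1000 uM and 24 h, 11 at 1000 uM and 48 h and 0 at 60 uM. Of all genes, 20.5% and 26.8% were lower at 1000 uM at 24 and 48 h. With arrays scaled to the spike-in controls, 9 members were higher at 1000 uM and 24 h, against 26.9% of all genes. With that scaling 1 member was lower at 48 h, against 11.9% of all genes.

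The clearest of the 11 was Rps27l, a paralog of the small subunit protein Rps27 that is known as a p53 target. Its signals at 48 h were 15663, 12386, 12464, 12313 and 11455 in DMSO and 7335, 9410, 7845, 8560 and 7400 at 1000 uM. Every dosed array lay below every control, and the change was -0.66 ± 0.10 (adjusted p = 1.17e-06), or 1.58-fold lower. At 60 uM the values were 10523, 11015, 11190, 11052 and 14537, a difference of -0.14 ± 0.10 that did not pass (adjusted p = 0.462). The direct comparison of the doses at 48 h gave -0.52 ± 0.10 (adjusted p = 9.31e-05), again with no overlap of 1000 uM arrays with 60 uM arrays. Over the 39 alternatives the change against DMSO ranged from -0.72 to -0.51 and passed in each of them. Rps27, its partner gene, has no probe set of a single symbol.

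Rpl7l1, a paralog of Rpl7 that takes part in making the large subunit, had signals of 6468, 7232, 7157, 7938 and 8122 in DMSO and 5823, 6258, 6489, 6214 and 6032 at 1000 uM after 48 h. Of the dosed arrays 4 lay below all controls, with 1 inside the control range, and the change was -0.26 ± 0.05 (adjusted p = 0.000226). At 24 h the same dose gave 0.05 ± 0.05 (adjusted p = 0.554). The difference between these effects was -0.31 ± 0.08 (adjusted p = 0.00782; 0.133 with spike-in scaling), and Rpl7l1 was the only member that passed this test as deposited, against 17 members with quantile normalisation, all with the lower effect at 48 h. As deposited 5.54% of all genes had a lower and 5.27% a higher effect at 48 h than at 24 h, against 5.83% and 5.52% with quantile normalisation. For Rps27l that difference was -0.33 and did not pass (adjusted p = 0.151). Rpl7 itself, on a bright probe set, had 55633 ± 3376 in DMSO and 54584 ± 1240 at 1000 uM after 48 h, a difference of -0.03 ± 0.05 (adjusted p = 0.736). It passed in 1 of the 39 alternatives (adjusted p = 0.00772). A second probe set of Rpl7l1 was also lower at 48 h, by -0.20 ± 0.06 (adjusted p = 0.00540). That set passed in 39 of 40 settings, with a limma adjusted p of up to 0.730. With spike-in scaling the fall of Rpl7l1 at 48 h was -0.11 and did not pass, while its value at 24 h was 0.28 and did.

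Rpl39, a short protein that lines the exit tunnel, had the largest difference among the 11 and the widest error. Its signals at 48 h were 1935, 1660, 1657, 1214 and 981 in DMSO and 488, 1161, 669, 950 and 777 at 1000 uM, with 4 dosed arrays below all controls. The change was -0.90 ± 0.35 (adjusted p = 0.0440). It no longer passed without any 1 of DMSO replicates 1, 2 or 3 or 1000 uM replicates 1, 3 or 5 (adjusted p up to 0.128). At 24 h its DMSO arrays alone ran from 568 to 2005.

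The other 8 were bright members with changes between -0.18 and -0.13. Rpl3 had 72789, 73819, 68485, 69786 and 79065 in DMSO and 63737, 63987, 64630, 63604 and 64686 at 1000 uM after 48 h. No dosed array reached a control, and the change was -0.18 ± 0.05 (adjusted p = 0.00382). Rpl12 had 62907, 62590, 60640, 57509 and 63467 in DMSO and 56119, 55218, 54029, 53744 and 51160 at 1000 uM, again without overlap, and changed by -0.18 ± 0.05 (adjusted p = 0.00152). Rps3, a small subunit protein at the messenger entry that also acts outside the ribosome, changed by -0.18 ± 0.06 (adjusted p = 0.0221), from 46884 ± 3539 to 41365 ± 2167, with 2 dosed arrays below all controls. The Rps3 call was lost without any 1 of DMSO replicates 1 or 5 or 1000 uM replicate 4 (adjusted p up to 0.0713). Rpl22 changed by -0.17 ± 0.05 (adjusted p = 0.00418), Rpl13a by -0.14 ± 0.04 (adjusted p = 0.00686) and Rpl18 by -0.14 ± 0.05 (adjusted p = 0.0160). Rpl21, at -0.15 ± 0.06 (adjusted p = 0.0449), and Rpl5, at -0.13 ± 0.05 (adjusted p = 0.0455), lay near the threshold. Rpl21 lost its call without any 1 of DMSO replicates 1, 2 or 3 or 1000 uM replicates 2, 3 or 5 (adjusted p up to 0.167). Rpl5 lost it in 9 such fits (adjusted p up to 0.113): those without DMSO replicates 1, 2 or 5, 60 uM replicates 2 or 5, or 1000 uM replicates 1, 3, 4 or 5. Rpl5 and Rpl11 travel with 5S rRNA and together restrain MDM2, and here Rpl11 had 0.04 ± 0.06 (adjusted p = 0.664). Of the 11 members, 9 are named for the large subunit and 2, Rps3 and Rps27l, for the small. Among all 47 members these numbers are 33 and 14, and the untested genes are all named for the large subunit.

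**Figure D3:**
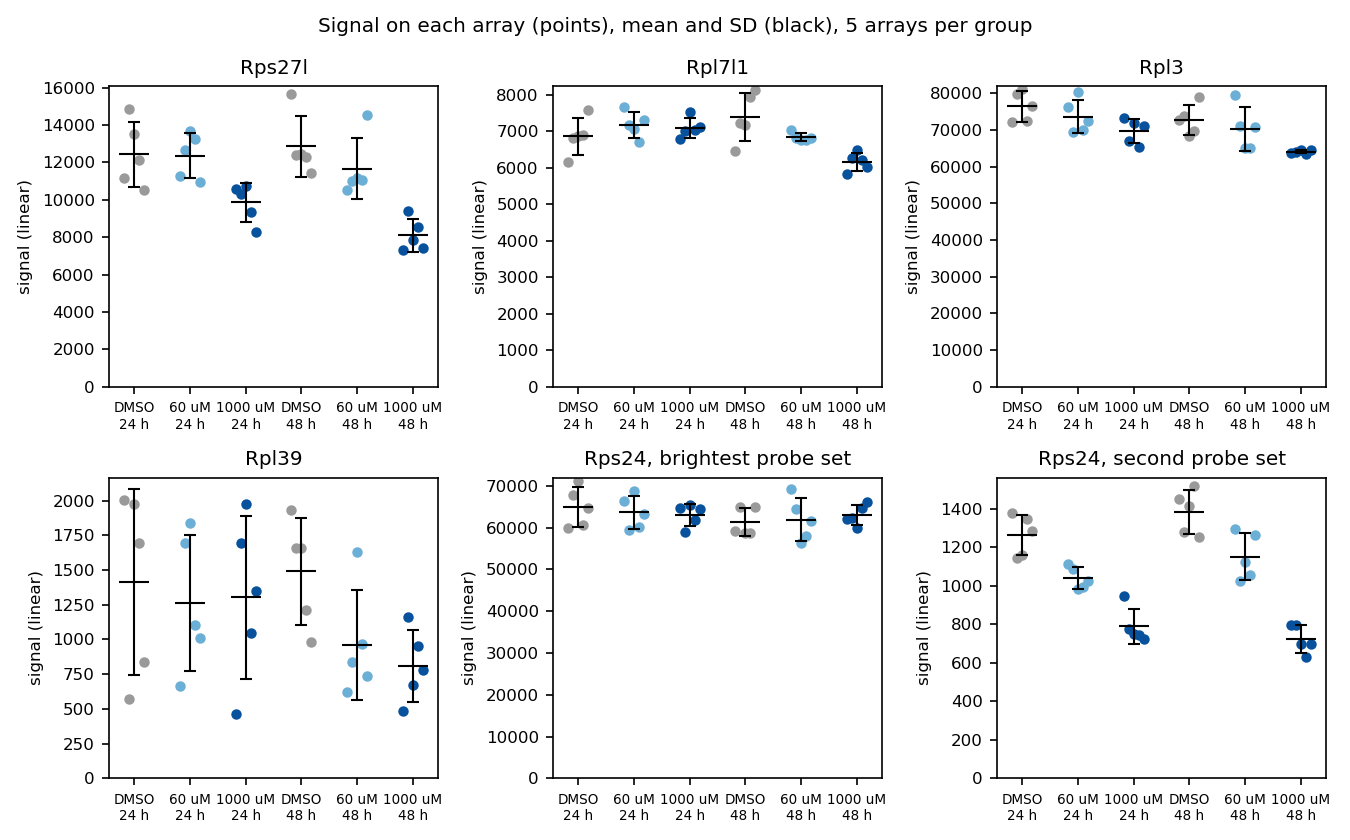
The signal on each array (points; linear axis from 0) with the mean and SD of 5 arrays (black) for Rps27l, Rpl7l1, Rpl3, Rpl39 and both probe sets of Rps24 in the 6 groups. Rps27l, Rpl3 and the second Rps24 probe set show no overlap between 1000 uM and DMSO at 48 h, while the brightest Rps24 probe set lies level.

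Rplp0, Rps6, Rpsa and the 3 brightest members, Rps29, Rps23 and Rpl26, did not pass at 1000 uM after 48 h as deposited. Over the 39 alternatives Rplp0 and Rpl26 passed in 0. Rps6, Rps29, Rps23 and Rpsa each passed in 1, with limma adjusted p of 9.36e-05, 0.000535, 0.00498 and 0.0362. Rplp0, commonly used as a reference gene, had 65644 ± 4086 in DMSO and 63744 ± 1373 at 1000 uM (-0.04 ± 0.07, 95% interval -0.18 to 0.10, adjusted p = 0.686). Rps6, the substrate of the S6 kinases, had -0.08 ± 0.05 (interval -0.18 to 0.02, adjusted p = 0.185), and Rpsa, also known as the laminin receptor, -0.02 ± 0.05 (interval -0.12 to 0.08, adjusted p = 0.755). Rps29 had -0.02 ± 0.05 (adjusted p = 0.820), Rps23 -0.04 ± 0.05 (adjusted p = 0.588) and Rpl26 -0.01 ± 0.05 (adjusted p = 0.931). Rpl26l1, a near-identical paralog of Rpl26, had 499 ± 37 in DMSO and 538 ± 73 at 1000 uM (0.10 ± 0.19, adjusted p = 0.723), and cross-hybridisation between such copies was not tested. Rpl30 had the highest value above 0, 0.46 ± 0.27 (adjusted p = 0.196), with signals of 508, 221, 487, 293 and 394 in DMSO and 449, 577, 519, 642 and 356 at 1000 uM, which overlap; it was picked out after its values were seen.

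Of the 6 members with more than 1 probe set of a single symbol, Rps24 stood out, which was seen in the values and not set by a rule. Its brightest set had 61280 ± 3293 in DMSO and 62957 ± 2388 at 1000 uM after 48 h (0.04 ± 0.05, adjusted p = 0.601). Its second, dimmer set had 1451, 1282, 1412, 1518 and 1254 in DMSO, 1293, 1024, 1122, 1056 and 1264 at 60 uM, and 799, 797, 696, 628 and 699 at 1000 uM. The 1000 uM arrays lay below all others, with a change of -0.94 ± 0.09 (adjusted p = 4.75e-10). At 24 h the same set changed by -0.68 ± 0.09 at 1000 uM (adjusted p = 4.18e-07), from 1264 ± 106 to 789 ± 90, and the 2 doses differed by -0.41 ± 0.09 (adjusted p = 0.00152). These calls against DMSO at 1000 uM held in 40 of 40 settings. At 60 uM it had -0.28 ± 0.09 at 24 h (adjusted p = 0.0699) and -0.27 ± 0.09 at 48 h (adjusted p = 0.0705). Rps24 is known to make several splice forms, and which transcript the second set detects was not analysed here. The brightest set lies near the top of the array's range, and whether its signal still follows the amount of RNA in proportion was not tested. The dimmest of the 3 Rpsa sets, whose probes can match related sequences (an _x_at set), was lower at 1000 uM after 24 h by -0.32 ± 0.07 (adjusted p = 0.000464) and had -0.01 ± 0.07 after 48 h (adjusted p = 0.963), while the other 2 did not pass at either time. The 24 h call of the dimmest set held in 39 of 40 settings. Over them its change ranged from -0.37 to -0.08, with a limma adjusted p of up to 0.559. Among the 36 probe sets with several symbols, 1 was higher and 5 lower at 1000 uM after 48 h, where 17.1% of all genes were higher and 26.8% lower.

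Between the doses at 24 h, 1 member was lower at 1000 uM than at 60 uM and 0 higher, against 12.8% and 8.75% of all genes. This was Rps27l, at -0.33 (adjusted p = 0.0156), the 1 member without overlap of the arrays (10.4% of all genes), and its call was lost without 60 uM replicate 3 or 1000 uM replicate 5. At 48 h, 3 were lower and 0 higher against 18.5% and 11.9%: Rps27l, Rpl7l1 (-0.15 ± 0.05, adjusted p = 0.0376) and Rpl13a (-0.12 ± 0.04, adjusted p = 0.0303), and 3 members (Rps27l, Rpl7l1 and Rpl3) had no overlap, against 13.1% of all genes. As single arrays were left out, the Rpl7l1 call at 48 h was lost in 8 fits (adjusted p up to 0.102) and the Rpl13a call in 3 (up to 0.117). Without any 1 of 60 uM replicates 1 or 2 or 1000 uM replicate 5 only 1 member was lower. With quantile normalisation 25 were lower at 48 h (17.3% of all genes), and 1 with median centring (14%) or spike-in scaling (5.93%). These comparisons share the 1000 uM arrays with those against DMSO. In the vehicle alone, 0 members were higher and 0 lower at 48 h than at 24 h, against 5.1% and 3.75% of all genes, with 0 and 2 at an unadjusted p under 0.05. There 39 of 44 values lay below 0, against 51.4% of all genes, with a median of -0.06 against -0.01 over all genes (0.11 against 0.16 with spike-in scaling). Over the 263 brightest genes, which include the 38 bright members, the median as deposited was -0.05, and over those 38 members it was -0.07. A difference between the members and other bright genes was not tested. The effect of 60 uM differed between the times in 0 members in each direction (0.0659% of all genes higher, 0.0847% lower), with 0 and 1 at an unadjusted p under 0.05.

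The members' common level depended on how the arrays were scaled, and the direction of their median change was not the same under each scaling. As deposited, the mean log2 signal of the 38 bright members was 15.72 ± 0.06 in DMSO and 15.64 ± 0.02 at 1000 uM after 48 h. With the arrays scaled to the poly-A spike-in controls it was 15.71 ± 0.21 and 15.79 ± 0.06, where the DMSO arrays spread most. With spike-in scaling the members' median change at 1000 uM was 0.17 at 24 h and 0.092 at 48 h, and that of all genes 0.18 and 0.092, a shift shared by members and other genes. With quantile normalisation 32 of the 44 were lower at 1000 uM after 48 h, with a median of -0.13 against -0.03 over all genes. Ranks do not change when an array is scaled as a whole, and the bright members' median rank from the top was 150 ± 6 in DMSO and 178 ± 6 at 1000 uM after 48 h. Their share of the total signal was 2.99% ± 0.09 and 2.80% ± 0.03. At the same time the number of probe sets above log2 15 was 369 ± 19 and 399 ± 3, and their part in the rank was not tested.

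**Figure D4:**
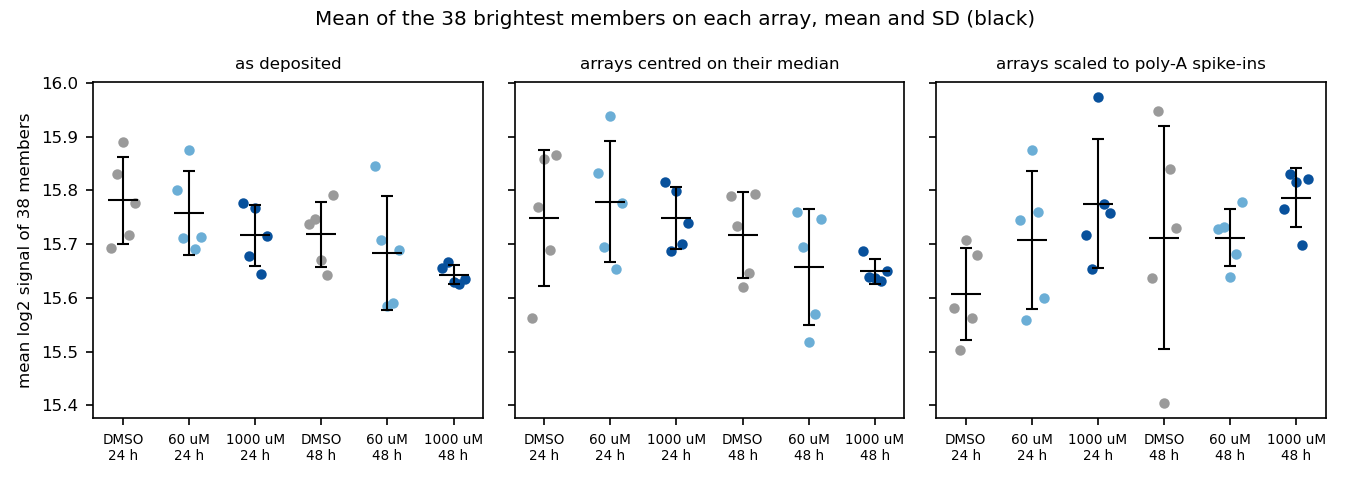
The mean log2 signal of the 38 bright members on each array (points) with the mean and SD of 5 arrays (black), as deposited, with each array centred on its median and with each array scaled to the spike-in controls. From DMSO to 1000 uM at 48 h the group mean goes from 15.72 to 15.64 as deposited and from 15.71 to 15.79 with spike-in scaling.

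The related lists hold genes that make ribosomes, use them or control their number. Their counts at 1000 uM after 48 h stand beside 26.8% of all genes lower and 17.1% higher as deposited, and 11.9% and 22% with spike-in scaling. Of 59 ribosome biogenesis genes tested, 41 were lower and 0 higher at 1000 uM after 48 h (median -0.36), and 18 and 1 with spike-in scaling (median -0.21). Among them Nop58, a core protein of the box C/D particles that guide ribosomal RNA methylation, fell by 0.97 (SE 0.08), Rrs1, which helps bring 5S rRNA into the large subunit, by 0.88 (SE 0.10), and Rrp1b by 1.37 (SE 0.31). At 24 h 18 were lower and 3 higher as deposited, but 1 lower and 12 higher with spike-in scaling, against 20.5% of all genes lower and 13.4% higher as deposited and 5.62% and 26.9% with spike-in scaling. Of 11 RNA polymerase I genes, 6 were lower and 0 higher at 48 h, with Polr1b, its second-largest subunit, at -1.16 ± 0.17 (adjusted p = 1.48e-06); with spike-in scaling 1 was lower and 1 higher.

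Of 34 initiation factor genes, 18 were lower and 4 higher at 48 h as deposited, and 2 lower and 4 higher with spike-in scaling. Eif3d, a subunit of the factor that binds the small subunit, changed by -0.43 ± 0.05 and Eif2b2, of the exchange factor for eIF2, by 0.55 ± 0.07. Of 8 elongation factor genes 4 were lower and 1 higher, and Eef2, which moves the ribosome along, changed by -0.30 ± 0.05; with spike-in scaling 1 was lower and 1 higher. Among 22 genes of mTOR and MYC control, 8 were lower and 1 higher, and 6 and 3 with spike-in scaling. Myc, which drives ribosome synthesis, changed by -0.63 ± 0.10 at 24 h and -1.22 ± 0.10 at 48 h, Sesn1, an inhibitor of mTORC1 signalling, by -1.70 ± 0.10 and -1.24 ± 0.10, and Larp1, which holds TOP messengers back, by -0.45 ± 0.13 and -0.56 ± 0.13. Of 6 other TOP messengers, 3 were lower and 0 higher, led by Vim at -2.67 ± 0.10; with spike-in scaling 1 was lower and 1 higher.

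The mitochondrial ribosomal proteins, which translate the mitochondrial genome's messengers, held more genes that were higher than lower. Of 73 tested, 28 were higher and 6 lower at 1000 uM after 48 h (median 0.08), and 35 and 0 with spike-in scaling (median 0.23). At 24 h 16 were higher and 2 lower, and 43 and 0 with spike-in scaling. Mrps18a rose by 0.98 ± 0.06 at 24 h and 1.12 ± 0.06 at 48 h (adjusted p = 8.03e-16). A test of the cytosolic against the mitochondrial list was not made. Rack1, a protein of the small subunit outside the symbol rule, had -0.06 ± 0.05 (adjusted p = 0.316).

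**Figure D5:**
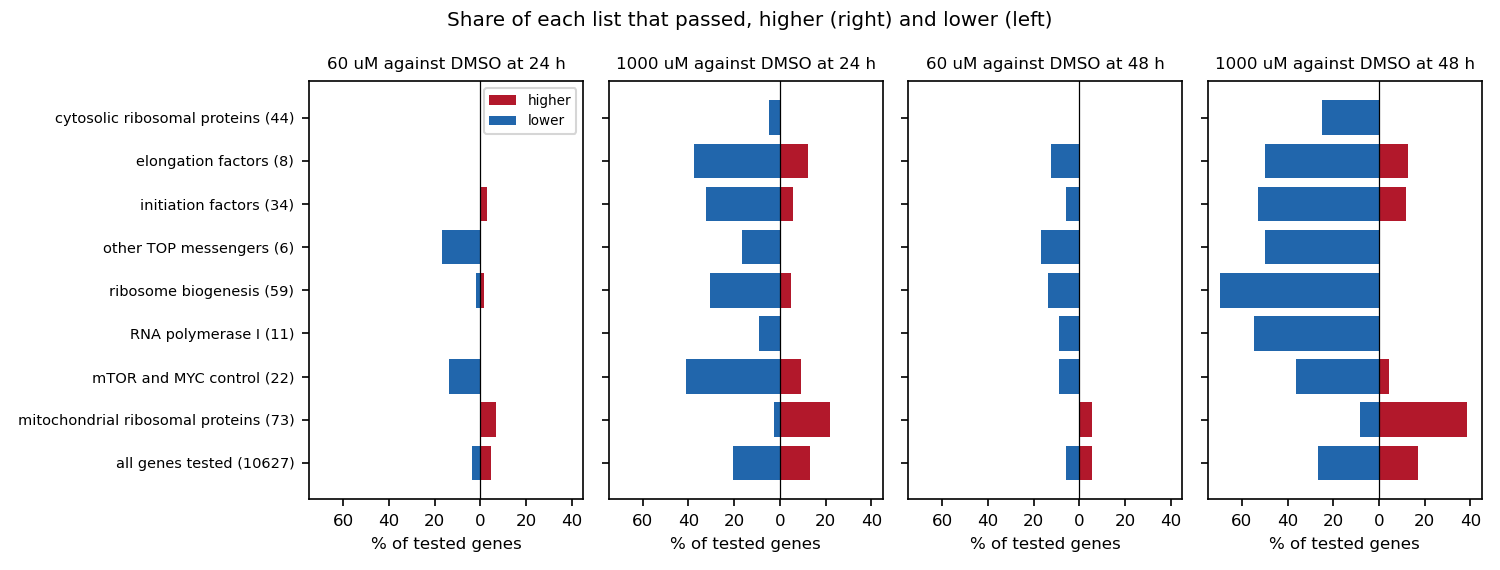
The share of tested genes that were higher (red, to the right) and lower (blue, to the left) in each list, with the number tested in brackets, in the 4 comparisons with DMSO as deposited. At 1000 uM and 48 h 25% of the cytosolic ribosomal proteins were lower, against 26.8% of all genes and 69.5% of ribosome biogenesis genes. With spike-in scaling 1 of the 44 and 18 of the 59 were lower, against 11.9% of all genes.

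Hepatocyte markers were all expressed: 9 of 10 listed were on the array and all 9 lay above the filter, with a summed signal of 493159 to 593795 in DMSO and 458003 to 482146 at 1000 uM after 48 h. Of the Kupffer cell markers 5 of 7 lay above the filter, and their sum was 22317 to 26213 in DMSO and 20647 to 21883 at 1000 uM after 48 h. The bile duct sum was 12749 to 15215 and 10072 to 10670 there, with 1 of 5 above the filter and Krt7 under the floor in every group. Of the endothelial markers 4 of 6, of the stellate 5 of 8 and of the lymphoid 0 of 5 lay above the filter. The 3'/5' signal ratio averaged 2.33 to 2.56 for actin and 1.14 to 1.18 for GAPDH over the groups. The part of these in the members' values was not tested.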

How the data were processed

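Total RNA was labelled with biotin and hybridised to rat expression arrays, per the labels' protocols. The values are the linear signal intensity of each probe set as deposited by the authors, made with MAS5, in a version not given in the sources used here, per the submitters' processing notes. Each array's mean after trimming 2% at each end was 1501. Their log2 was taken with nothing added. Of 31042 probe sets other than controls, the lowest 40% by mean log2 (up to a signal of 255) were dropped, which left 18625 and 10627 genes with a single symbol.

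All 30 arrays entered 1 limma fit (R 4.3.3, limma 3.58.1) with a mean per group and an intensity trend. Benjamini-Hochberg adjustment ran over all 18625 probe sets within each of 9 comparisons, and passing means an adjusted p under 0.05. The code was tested on simulated data. Precision is limited by the number of arrays.

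The symbol rule for members, the related gene lists and the tests were chosen with earlier results of these data known, so the lists' directions are not independent evidence. Named were the members with the largest passing changes (5 each way against DMSO, 3 elsewhere), the 4 brightest and 4 dimmest, the stalk genes, Rpsa, Rps3, Rps6, and paralogs with their partners; the others named were picked after their values were seen. Promoter windows come from RefSeq (GRCr8); no build is named for the array itself. Alternatives were 3 other scalings, 16 added before log2, no filter, the mean of a member's probe sets, no trend, only the groups compared, and leaving out each array; members above log2 15 alone, and sets of 6 title numbers as a block, were added after seeing the data. Probe-level values were not used here.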

Additional observations from a re-analysis of the deposited data

Results flagged for a closer look

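Over 144 groups of 5 arrays (21 members and 3 summary values in each of 6 groups), 7 had 1 array farther from the others than Dixon's 95% critical value of 0.71 allows, and chance flags about 1 in 20 groups. Rps27l was high in replicate 1 of DMSO at 48 h (log2 13.94, a signal of 15663 against 11455 to 12464 in the others) and in replicate 5 of 60 uM at 48 h (log2 13.83, 14537 against 10523 to 11190). Rpl7l1 was high in replicate 1 of 60 uM at 48 h (log2 12.78). Rps13 was low in replicate 5 of 60 uM at 48 h (log2 5.93, a signal of 61.2 against 257 to 387). Rpl13a was high in replicate 3 of 60 uM at 24 h (log2 15.77) and low in replicate 5 of 1000 uM at 48 h (log2 15.31). Rps23 was high in replicate 2 of 1000 uM at 48 h (log2 16.27).

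The effect of 1000 uM on Rpl7l1 differed between 48 h and 24 h by -0.31 on the log2 scale (limma interaction, adjusted p = 0.00782).

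The array also carries a control probe set for 5S ribosomal RNA, which is no messenger and entered none of the comparisons. Its signal was 882 ± 141 (SD, n = 5) in DMSO, 1116 ± 175 at 60 uM and 1650 ± 542 at 1000 uM after 24 h, and 677 ± 68, 917 ± 87 and 1679 ± 411 after 48 h. On the log2 scale it was higher than in DMSO by 0.85 at 1000 uM after 24 h (4 of 5 arrays above all controls), by 0.44 at 60 uM after 48 h (5 of 5) and by 1.28 at 1000 uM after 48 h (5 of 5). In 2-sided exact permutation tests, adjusted over 4 comparisons, p was 0.0317, 0.0159 and 0.0159 for these, and 0.0635 at 60 uM after 24 h; the smallest unadjusted p that 5 against 5 can give is 0.00794. The number in the array titles orders the arrays in 5 sets that each hold all 6 groups, and these permutation tests did not use it. Set by set, the log2 difference at 1000 uM was -0.15, 0.44, 0.87, 1.52 and 1.58 after 24 h and 0.60, 1.23, 1.29, 1.42 and 1.86 after 48 h, so it was larger in each later set. At 60 uM it was above 0 in 3 of 5 sets after 24 h and in 5 of 5 after 48 h. What the number marks is not given in the labels, and its part in the 5S signal was not tested. 5S rRNA has no poly-A tail, and how much of it the labelling carries over was not tested.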

How the results depend on the processing

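Over the 39 alternatives, the counts and medians moved mostly with the scaling. Median centring gave 0 members lower at 1000 uM after 24 h, 6 after 48 h and 1 for 1000 uM against 60 uM at 48 h, and moved the median difference between the times at 60 uM to -0.090. Of all genes 13.8%, 24.5% and 14% were lower in these comparisons, in that order. Quantile normalisation gave 1 member higher and 5 lower at 1000 uM after 24 h and 3 lower at 60 uM and 32 lower at 1000 uM after 48 h. It also gave 2 lower at 24 h and 25 lower at 48 h for 1000 uM against 60 uM, and 17 lower for the time difference at 1000 uM, whose median became -0.11. Of all genes 14.6% were then higher and 19.3% lower at 1000 uM after 24 h. After 48 h 6.22% were lower at 60 uM and 24.4% at 1000 uM. For 1000 uM against 60 uM 12.6% and 17.3% were lower at 24 and 48 h, and 5.83% for the time difference. Spike-in scaling gave 9 higher and 0 lower at 1000 uM after 24 h and 1 lower after 48 h, and 0 and 1 lower for 1000 uM against 60 uM at 24 and 48 h. Of all genes 26.9% were then higher and 5.62% lower at 1000 uM after 24 h, and 11.9% lower after 48 h. For 1000 uM against 60 uM 3.62% and 5.93% of all genes were lower with this scaling. With it the medians became 0.10 at 60 uM after 24 h, 0.17 and 0.092 at 1000 uM after 24 and 48 h, 0.070 and 0.081 for 1000 uM against 60 uM, 0.11 for the DMSO time course, and -0.10 at 60 uM and -0.10 at 1000 uM for the time difference, with 0 lower in the last. Without the filter, and without the intensity trend, 1 member each was lower at 1000 uM after 24 h and for 1000 uM against 60 uM at 48 h. The mean of a member's probe sets gave 1 lower at 60 uM after 24 h and 2 lower for 1000 uM against 60 uM at 24 h. The cause of these shifts was not tested.

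Leaving out each array in turn, the number lower ranged from 1 to 5 at 1000 uM after 24 h, from 7 to 13 at 1000 uM after 48 h, from 0 to 1 and from 1 to 4 for 1000 uM against 60 uM at 24 and 48 h, and from 0 to 1 at 60 uM after 48 h (1 without 60 uM replicate 1). Single genes turned sign in 8 cases. At 1000 uM after 24 h, Rpl26 became 0.067 with quantile normalisation, and with spike-in scaling Rpl26, Rps3 and Rpl3 became 0.21, 0.20 and 0.10; Rpl3 became 0.019 over the mean of its probe sets. At 1000 uM after 48 h, Rpl13a, Rpl18 and Rpl5 became 0.0066, 0.013 and 0.024 with spike-in scaling. Another 101 values changed sign and were called under neither setting. Rps27l at 1000 uM after 48 h passed in all 39 alternatives and Rpl7l1 in 38. With members above log2 15 alone, 8 were lower and 0 higher there. Members near the filter, such as Rps13 and Rpl30, had dim signals with wide errors and bound little. The number that ends each array's title runs through 5 sets of 6 arrays that each hold all 6 groups; the labels do not say what it marks. With the set as a block, chosen after seeing the data, 5 members were lower for 1000 uM against 60 uM at 48 h, 3 at 1000 uM after 24 h, where Rps23 also passed, and 12 at 1000 uM after 48 h; no member lost a call. The deviations of arrays of 1 set from their group means correlated at -0.051 to 0.11 over 75 pairs (median 0.0056). Over 300 pairs of other sets and other groups the range was -0.079 to 0.088 (median -0.0027). Arrays of other groups lie evenly over the 5 sets. Without a tie to the set, about 1 in 5 closest matches would fall in an array's own set. Here 12 of 30 arrays had their closest match in their own set, and no test was made of this count.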
